A study of Mus musculus with 9 samples.

Results

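The ligands, receptors and feedback genes of the transforming growth factor β (TGF-β) pathway were followed in neutrophils from mouse skin during chemical carcinogenesis. The members were 10 named genes, and every non-control probe that the array design assigns to one of them was used: 17 probes of 55681. Tgfb1, Tgfb2, Tgfb3 and Inhba encode ligands, Tgfbr1 and Tgfbr2 the receptors, Smad3 the transducer, Smad7 and Skil feedback inhibitors, and Tgfbi a secreted target. Tgfbr1 had 4 probes, Tgfb2, Tgfbr2, Smad3 and Skil had 2 each, and the other 5 genes had 1 each. All mice were FVB/N, received the carcinogen DMBA at week 6 and again at week 13 of age, and had the tumor promoter PMA applied to the skin 2 times a week from week 1 to week 18 to 20. Gr-1bright neutrophils were sorted from skin adjacent to papillomas (papilloma skin, 2 arrays), skin adjacent to carcinomas (tumor skin, 2 arrays), papillomas (3 arrays) and carcinomas (tumor, 2 arrays). Skin of mice without carcinogen is not among the 4 groups, so both skin groups are treated tissue. RNA on each array came from several pooled mice, and p-values therefore measure the spread between pools.

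TGF-β ligands are secreted in a latent form, held by the extracellular matrix or by cell-surface anchors, and act only after release. The active ligand brings together the type II receptor TGFBR2 and the type I receptor TGFBR1 (ALK5), which phosphorylates SMAD2 and SMAD3, and these enter the nucleus with SMAD4. SMAD7 and the SKI family protein SKIL (SnoN) are transcribed in response and restrain the same signal, and in tumors TGF-β is known for its influence on how neutrophils behave. Activin A, the dimer of the Inhba product, uses its own receptors but the same SMAD2 and SMAD3.

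Values are log2 signals from the deposited table of normalized values, so a difference of 1 is a doubling, and a probe's level cannot be set against another probe's. For 7 of the 9 arrays, the column of that table had a rank correlation of 0.931 to 0.980 with the array's own scanner file. The column papilloma skin 1 had 0.588 with its own file and 0.924 with that of tumor 2, and the column tumor 1 had 0.827 with its own file and 0.947 with that of tumor 2. The columns papilloma 2 and papilloma 3 were each closest to the other's file. The spike-in slope was 0.678 on papilloma skin 1, 0.876 on tumor skin 1, 0.894 on tumor 1 and 1.04 to 1.06 on the other 6 arrays. Counts are therefore also given without the columns papilloma skin 1 and tumor 1. All 14 neutrophil markers, Ly6g, S100a8 and Csf3r among them, were well above background on all 9 arrays. Their summed level was 20.08 to 20.15 in papilloma skin, 20.36 to 20.38 in tumor skin, 19.78 to 19.81 in papillomas and 19.94 to 20.00 in tumors. Levels of a marker list were summed on the linear scale and returned to log2, so its brightest markers weigh most.

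The ligand genes gave the pattern that differed most between the lesions, so the probes behind it are shown. The Tgfb1 and Tgfb2 probes below cover the same stretch of the mature growth factor, at chr7:26489877-26489936 (plus strand) and chr1:188449333-188449392 (minus strand) of mm9. Capitals mark bases identical in both: 28 of 41 overlapping bases (68.3%). The Inhba probe, at chr13:16118634-16118693 (plus strand, mm9), had at most 48.6% identity over its best overlap with any other ligand probe. All 3 are 60 bases long and written 5′ to 3′.
Tgfb1: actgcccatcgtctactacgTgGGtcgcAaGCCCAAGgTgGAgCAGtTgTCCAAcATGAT
Tgfb2: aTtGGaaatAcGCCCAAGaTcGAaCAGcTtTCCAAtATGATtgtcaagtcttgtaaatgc
Inhba: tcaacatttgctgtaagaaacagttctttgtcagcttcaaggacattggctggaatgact

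RefSeq promoter windows (GRCm38.p6) were matched by symbol for 7 of the 10 genes, 8 windows in all. No window was matched for Smad7, Skil or Tgfb3. The SMAD core motif CAGAC, read on both strands, stood in the 250 bases before the start in 4 of these 8 windows and in 42.2% of 32851 promoters. The SMAD palindrome GTCTAGAC and the AP-1 motif TGACTCA were in 0 of the 8, against 0.167% and 4.46% of all promoters. The windows of Tgfb1, Smad3 and Inhba and 1 window of Tgfbr1 hold the core 0 times. That of Tgfbi, which passed in no comparison, holds it 2 times. The window before the start of Tgfb2, the member with the largest change between papilloma and tumor, also holds the core 2 times (capitals). It lies at chr1:186705990-186706239 on the minus strand and is written 5′ to 3′.
Tgfb2 promoter: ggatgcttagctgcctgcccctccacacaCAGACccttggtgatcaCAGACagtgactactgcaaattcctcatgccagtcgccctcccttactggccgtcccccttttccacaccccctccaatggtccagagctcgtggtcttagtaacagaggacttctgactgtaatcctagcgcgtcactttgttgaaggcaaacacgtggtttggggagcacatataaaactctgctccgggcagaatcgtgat

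Most member probes were higher in the lesion than in the adjacent skin. In papillomas against papilloma skin, 11 of 17 probes from 7 genes rose, 0 fell and 6 did not pass, where 6.35% of all probes passed and 4.15% passed upwards (limma, Benjamini-Hochberg adjusted p of at most 0.05 over all probes). The median log2 fold change of the 17 was 0.81, against -0.01 over all probes. In tumors against tumor skin, 7 of 17 probes from 5 genes rose, 0 fell and 10 did not pass, where 9.74% of all probes passed and 5.78% passed upwards, and the median was 0.60 against -0.02. The 5 genes that rose in tumors, Inhba, Tgfbr1, Smad3, Smad7 and Skil, also rose in papillomas. In tumors against papillomas, 0 probes rose and 3 fell (both Tgfb2 probes and Tgfb3), where 0.645% of all probes passed and 0.445% passed downwards. With the methods' added minimum of 1 log2 unit of change and a mean level of 6, the counts were 7 in papillomas (3.18% of all probes), 3 in tumors (4.21%) and 3 between the lesions (0.447%). Groups did not overlap for 15 probes in papilloma against papilloma skin (37.6% of all probes), of which 14 were higher in papillomas. In tumor against tumor skin they did not overlap for 13 (52.1%), of which 10 were higher in tumors. Without the columns papilloma skin 1 and tumor 1, 5 probes passed in papilloma against papilloma skin (2.33% of all probes), 1 in tumor against tumor skin (4.2%) and 0 in tumor against papilloma (0%). The 5 were both Tgfb2 probes, Tgfbr1 probe 1, Smad7 and Skil probe 2, and the 1 was Smad7. With 1 papilloma column left out, which keeps 2 arrays in every group, the counts and the shares of all probes both fell. They ran from 6 to 7 (2.95% to 3.52%), 3 to 6 (5.55% to 7.08%) and 1 to 2 (0.0898% to 0.32%). Each of the 9 columns was also left out in turn, with the counts given below. Smad7 and Inhba passed in both lesion comparisons in all 9 of these fits.

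**Figure D1:**
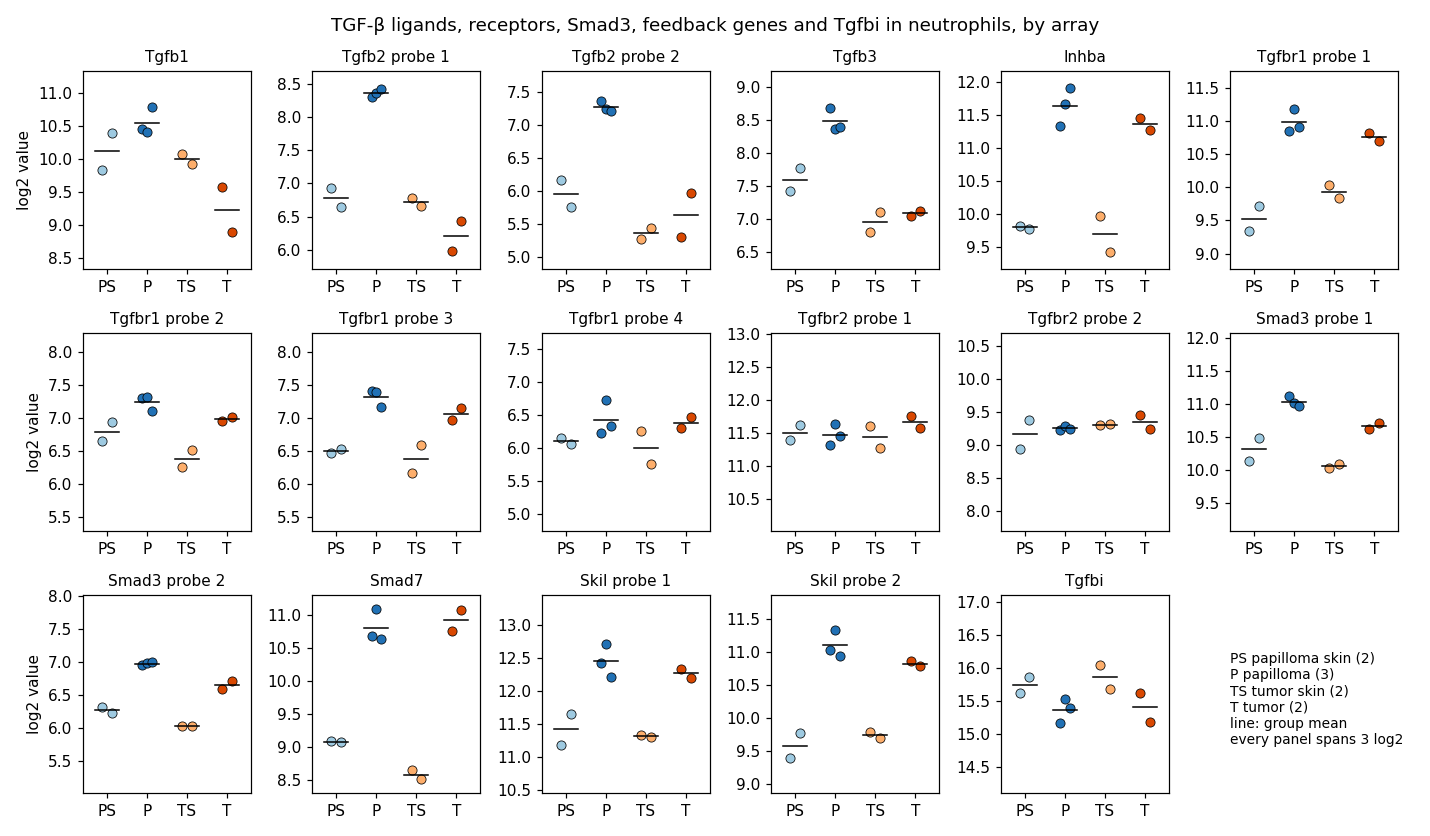
Log2 value (vertical axis, 3 log2 units in every panel) of each member probe on each array. Points are arrays in papilloma skin (PS, 2), papilloma (P, 3), tumor skin (TS, 2) and tumor (T, 2), and lines are group means. Tgfb2 and Tgfb3 are highest in papillomas, Inhba, Smad7 and Skil are high in both lesions, and Tgfbr2 stays within 11.27 to 11.75 on probe 1.

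Of the ligands, Tgfb2 and Tgfb3 were highest in papillomas. Tgfb2 probe 1 read 6.92 and 6.65 in papilloma skin, 8.31, 8.37 and 8.43 in papillomas, 6.78 and 6.66 in tumor skin, and 5.98 and 6.43 in tumors. The 3 papilloma arrays stood above the other 6, and the 2 tumor arrays were the lowest. Tgfb2 probe 1 rose by 1.58 log2 units (SE 0.17, adjusted p = 0.00181 by limma) in papillomas over papilloma skin. It was lower by 2.17 (SE 0.17, adjusted p = 0.00382) in tumors than in papillomas, a difference that passed in all 9 fits with 1 column left out. Tgfb2 probe 2 read 6.16 and 5.75 in papilloma skin, 7.36, 7.24 and 7.20 in papillomas, 5.27 and 5.44 in tumor skin, and 5.30 and 5.97 in tumors. It was not well above background on papilloma skin 2 and tumor skin 2. Its changes were a rise of 1.31 (SE 0.22, adjusted p = 0.0107) in papillomas over their skin and -1.63 (SE 0.22, adjusted p = 0.0201) in tumors against papillomas. These calls held in 8 and 5 of the 9 fits with 1 column left out, with adjusted p up to 0.0809 and 0.116. In tumors against tumor skin the probes had opposite signs, -0.52 (adjusted p = 0.118) and 0.28 (adjusted p = 0.495), and neither passed. In the 5 fits of scanner values both were positive there, at 0.21 to 0.34 for probe 1 and 0.35 to 2.54 for probe 2.

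Tgfb3 encodes the third TGF-β isoform. It read 7.42 and 7.77 in papilloma skin, 8.68, 8.37 and 8.39 in papillomas, 6.81 and 7.11 in tumor skin, and 7.05 and 7.13 in tumors. The papilloma arrays were again above all others, and tumors overlapped tumor skin. Tgfb3 rose by 0.88 (SE 0.17, adjusted p = 0.0228) in papillomas over papilloma skin, and in tumors it was at -1.39 (SE 0.17, adjusted p = 0.0171) against papillomas. Both calls held in 5 of the 9 fits with 1 column left out, with adjusted p up to 0.127 and 0.134. In tumors against tumor skin the difference was 0.13 (95% interval -0.31 to 0.56).

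Markers of stromal cells moved with Tgfb2 and Tgfb3. Of 8 smooth muscle or pericyte markers, 7 rose in papillomas over papilloma skin (median 1.75) and 6 were lower in tumors than in papillomas (median -1.91). Their summed log2 level was 11.78 to 12.08 in papilloma skin, 13.57 to 13.70 in papillomas, 11.99 to 12.12 in tumor skin and 11.60 to 11.68 in tumors. These markers were well above background on 6 to 9 of the 9 arrays. Of 13 fibroblast markers, 5 rose in papillomas over their skin and 4 were lower in tumors than in papillomas. The fibroblast sum was 13.85 to 14.89 in papilloma skin, 15.46 to 15.95 in papillomas, 13.22 to 13.38 in tumor skin and 12.88 to 14.13 in tumors. Of 8 endothelial markers, 5 rose in papillomas over their skin (median 1.53) and 0 passed between tumor and papilloma (median -1.37). Their sum was 12.82 to 13.60 in papillomas and 12.83 to 13.04 in papilloma skin. Kdr, with means of 12.57 and 12.60 there, was the brightest of them. Without the columns papilloma skin 1 and tumor 1, 7 of the 8 smooth muscle or pericyte markers rose in papillomas and 0 passed between tumor and papilloma. Their part in the Tgfb2 and Tgfb3 results was not tested. Fewer cells of a type and less RNA per cell cannot be told apart in these sorted bulk samples.

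**Figure D2:**
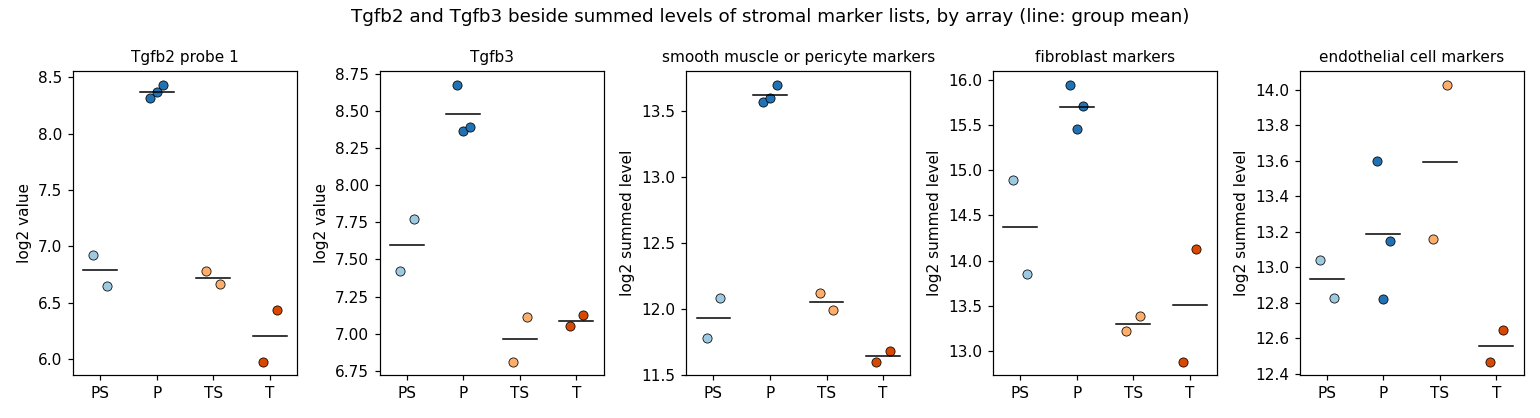
Log2 value of Tgfb2 probe 1 and of Tgfb3, and the log2 summed level of 8 smooth muscle or pericyte, 13 fibroblast and 8 endothelial markers, on each array (points) with group means (lines). Each panel has its own vertical range. The papilloma arrays are highest for Tgfb2, Tgfb3 and the first 2 marker sums, with smooth muscle sums of 13.57 to 13.70. The endothelial sum has its highest mean in tumor skin and follows Kdr, its brightest marker. The other endothelial markers have their highest group mean in papillomas.

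Tgfb1, the isoform that leukocytes mainly produce, passed in no comparison. It read 9.83 and 10.39 in papilloma skin, 10.45, 10.40 and 10.78 in papillomas, 10.08 and 9.93 in tumor skin, and 9.58 and 8.89 in tumors. The tumor arrays were the 2 lowest of the 9. The log2 fold change was -0.77 (SE 0.27, adjusted p = 0.116) in tumors over tumor skin, 0.43 (SE 0.25, adjusted p = 0.384) in papillomas over papilloma skin, and -1.31 (SE 0.25, adjusted p = 0.0752) between tumors and papillomas. Its 95% intervals were -1.40 to -0.14, -0.14 to 1.00 and -1.88 to -0.73.

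Inhba, which encodes the subunit of activin A, rose in both lesions. It read 9.83 and 9.78 in papilloma skin, 11.33, 11.67 and 11.91 in papillomas, 9.98 and 9.43 in tumor skin, and 11.46 and 11.27 in tumors. All 5 lesion arrays were above all 4 skin arrays, and the lesions overlapped each other. Inhba rose by 1.83 (SE 0.22, 3.56-fold, adjusted p = 0.00288) in papillomas and by 1.66 (SE 0.24, 3.16-fold, adjusted p = 0.00667) in tumors over their skin. Tumors and papillomas differed by -0.27 (95% interval -0.77 to 0.23).

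The receptors differed from each other. Tgfbr1 probe 1 read 9.34 and 9.72 in papilloma skin, 10.85, 11.19 and 10.92 in papillomas, 10.03 and 9.83 in tumor skin, and 10.82 and 10.71 in tumors. Every lesion array was above every skin array, with a rise of 1.46 (SE 0.17, adjusted p = 0.00272) in papillomas and of 0.83 (SE 0.19, adjusted p = 0.0318) in tumors. The tumor call held in 3 of the 9 fits with 1 column left out, with adjusted p up to 0.131. Probe 3, against the same transcript, rose by 0.81 (SE 0.16, adjusted p = 0.0257) in papillomas, a call that held in 4 of the 9 fits, and had 0.69 (SE 0.18, adjusted p = 0.0505) in tumors. Probes 2 and 4, designed on separate Ensembl transcripts, did not pass. Probe 2 had 0.45 (adjusted p = 0.136) in papillomas and 0.60 (adjusted p = 0.0597) in tumors, and probe 4, not well above background on papilloma skin 2 and tumor skin 2, had 0.32 and 0.38.

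Tgfbr2, the ligand-binding receptor, showed no passing difference on either probe. Probe 1 lay between 11.27 and 11.75 and probe 2 between 8.94 and 9.46 over all 9 arrays, with overlapping groups in each lesion comparison. For probe 1 the 95% interval was -0.42 to 0.34 in papillomas over papilloma skin and -0.20 to 0.63 in tumors over tumor skin. For probe 2 it was -0.27 to 0.46 and -0.36 to 0.45.

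Smad3, the transducer, rose in both lesions by less than 1 log2 unit. Probe 1 read 10.14 and 10.49 in papilloma skin, 11.12, 11.01 and 10.98 in papillomas, 10.03 and 10.10 in tumor skin, and 10.62 and 10.72 in tumors. Papillomas were highest, tumors next, and no skin array reached a lesion array. Probes 1 and 2 rose by 0.72 and 0.70 (SE 0.14 and 0.12, adjusted p = 0.0243 and 0.0124) in papillomas, calls that each held in 5 of the 9 fits with 1 column left out. In tumors they rose by 0.61 and 0.62 (SE 0.16 and 0.13, adjusted p = 0.0486 and 0.0250), calls that held in 2 and 3 of the 9 fits with 1 column left out. With scanner values and slide as a term, the tumor differences turned to -0.02 and -0.28. Probe 2 was not well above background on tumor skin 2.

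Of the feedback genes, Smad7 had the largest change among the members in tumors. Smad7 (probe at chromosome 18) read 9.08 and 9.07 in papilloma skin, 10.68, 11.08 and 10.63 in papillomas, 8.64 and 8.51 in tumor skin, and 10.76 and 11.07 in tumors. Lesion arrays were all above skin arrays, and the lesions overlapped. Smad7 rose by 2.34 (SE 0.19, 5.05-fold, adjusted p = 0.00101) in tumors and by 1.72 (SE 0.18, 3.30-fold, adjusted p = 0.00148) in papillomas. The difference between these effects was 0.61 (SE 0.26, adjusted p = 0.333).

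Skil probe 2 read 9.39 and 9.76 in papilloma skin, 11.02, 11.32 and 10.94 in papillomas, 9.79 and 9.69 in tumor skin, and 10.85 and 10.78 in tumors. Again each lesion array was above each skin array. Probe 2 rose by 1.52 (SE 0.17, adjusted p = 0.00219) in papillomas and 1.08 (SE 0.19, adjusted p = 0.0124) in tumors. Probe 1 read 11.19 and 11.66 in papilloma skin, 12.43, 12.71 and 12.21 in papillomas, 11.34 and 11.31 in tumor skin, and 12.33 and 12.20 in tumors. It rose by 1.03 (SE 0.20, adjusted p = 0.0202) and 0.94 (SE 0.21, adjusted p = 0.0326). The 2 probes therefore had the same direction in both lesions. With 1 column left out, the tumor calls of probes 1 and 2 held in 4 and 6 of the 9 fits, and their papilloma calls in 6 and 9.

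Tgfbi, a secreted matrix protein first cloned as a TGF-β-induced gene, did not follow Smad7 and Skil. It read 15.63 and 15.87 in papilloma skin, 15.16, 15.54 and 15.39 in papillomas, 16.05 and 15.69 in tumor skin, and 15.62 and 15.19 in tumors. The lesion arrays were below their own skin arrays in each comparison. The log2 fold change was -0.39 (SE 0.20, adjusted p = 0.318) in papillomas and -0.46 (SE 0.22, adjusted p = 0.216) in tumors, and neither passed.

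Other cell markers also moved between lesion and skin, where Inhba, Tgfbr1, Smad3, Smad7 and Skil rose. Of 13 keratinocyte markers, 3 rose in papillomas and 4 in tumors, with Krt6b up by 4.88 and 7.23. The keratinocyte sum was 13.48 to 13.88 in papilloma skin, 14.34 to 15.54 in papillomas, 13.32 to 14.27 in tumor skin and 14.68 to 16.26 in tumors. Of 14 neutrophil markers, 5 fell in papillomas and 7 in tumors, mostly genes of granule proteins such as Camp (-4.14 and -3.57) and Ngp (-3.27 and -3.39). Ly6g was also among those that fell in tumors, at -2.09 (adjusted p = 0.00894 by limma). In papillomas Ly6g was at -1.08 (adjusted p = 0.0777 by limma) and did not pass. Of 8 eosinophil markers, 4 fell in each lesion and 1, Siglec5, rose in tumors. The eosinophil sum was 13.69 to 14.03 in papilloma skin, 11.94 to 12.30 in papillomas, 13.18 to 13.22 in tumor skin and 12.96 to 13.14 in tumors. In tumors it followed Siglec5, the brightest there at 12.87 and 12.74, while the list median over tumor skin was -1.03. Of 12 monocyte or macrophage markers, 1 rose and 1 fell in papillomas and 1 fell in tumors, where the one that fell was Emr1, at -3.09 and -2.04. Their sum was 17.90 to 18.04 in papilloma skin, 18.11 to 18.24 in papillomas, 17.82 to 17.89 in tumor skin and 17.81 to 18.10 in tumors. Cd14 (mean 17.66) was the brightest of them. Stromal markers moved in tumors over tumor skin as well. There 3 of 13 fibroblast markers rose and 1 fell (median 0.98), with Pdgfrb up by 1.68 and Dcn at -1.38. Of the 8 smooth muscle or pericyte markers 2 rose and 1 fell (median -0.07), with Rgs5 up by 2.21 and Acta2 at -0.76. The smooth muscle or pericyte sum was 11.99 to 12.12 in tumor skin and 11.60 to 11.68 in tumors. Of the 8 endothelial markers 1 rose, Cdh5 by 2.39. The endothelial sum was 13.16 to 14.03 in tumor skin and 12.47 to 12.65 in tumors. It followed its brightest marker Kdr (-1.30), while the other endothelial markers were higher in tumors and the list median was 0.87. The part of these cells in the member results was not tested.

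**Figure D3:**
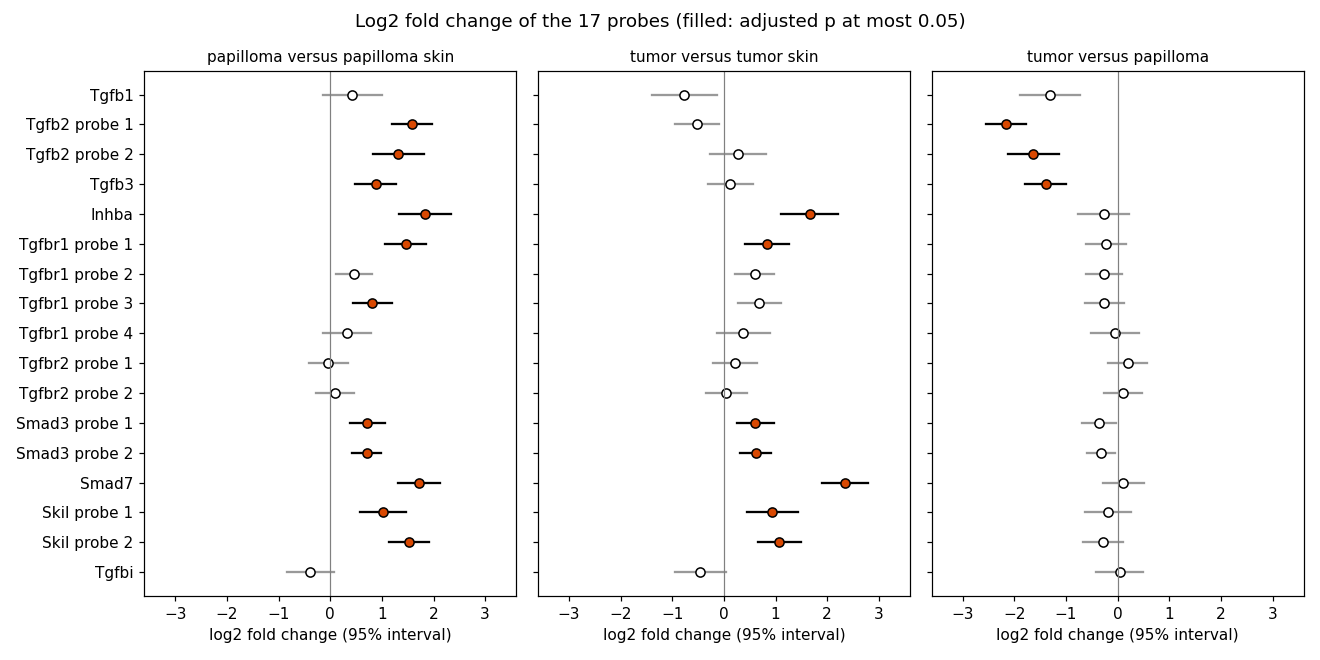
Log2 fold change (horizontal axis) with its 95% interval for each of the 17 probes (vertical axis) in 3 comparisons, from limma on the deposited value table. Filled points have an adjusted p of at most 0.05. There are 11 filled points on the right in papilloma, 7 in tumor, and 3 on the left in tumor against papilloma.

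The skin groups gave no call among the members. In tumor skin against papilloma skin 0 of 17 probes passed by limma and 4 had an unadjusted p under 0.05, where 0.623% of all probes passed. The largest difference was Tgfb3 at -0.63 (SE 0.19, adjusted p = 0.122), and Smad7 had -0.50 (SE 0.19, adjusted p = 0.184). The lesion effects were then set against each other, as the log2 fold change of tumor over tumor skin minus that of papilloma over papilloma skin. No member passed and 6 had an unadjusted p under 0.05, where 0.0323% of all probes passed. The lowest adjusted p was that of Tgfb2 probe 1, whose effects differed by -2.10 (SE 0.25, adjusted p = 0.0547). Tgfb2 probe 2 had -1.03 (adjusted p = 0.224) and Tgfb3 -0.75 (adjusted p = 0.253).

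The other genes of the pathway were counted with the brightest probe of each gene. Of all probes, 6.35% passed in papillomas over papilloma skin and 9.74% in tumors over tumor skin. Among probes well above background in at least 1 group these shares were 9.49% and 13.9%. Of 23 genes for ligand processing and storage or related ligands, 7 rose and 1 fell in papillomas over papilloma skin, while 1 rose and 3 fell in tumors over tumor skin. Lrrc32 (GARP), which anchors latent TGF-β at the cell surface, rose by 2.38 (SE 0.28, adjusted p = 0.00274) in papillomas and was lower by 2.31 (SE 0.28, adjusted p = 0.0158) in tumors than in papillomas. Fstl1, a secreted follistatin-like protein, rose by 1.45 (SE 0.33, adjusted p = 0.0401) in papillomas. Fst (follistatin), which binds activin, rose by 2.17 (SE 0.49, adjusted p = 0.0308) in tumors, where Bmp4 fell by 1.56. Lrrc32 read 8.18 and 7.43 in papilloma skin, 10.43, 9.88 and 10.26 in papillomas, 6.65 and 6.83 in tumor skin, and 7.56 and 8.19 in tumors. Its papilloma arrays were above all others, as they were for the smooth muscle or pericyte and the fibroblast sums. The part of stromal cells in the Lrrc32 result was not tested.

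Of 12 other receptors and coreceptors, 2 rose in papillomas, 1 rose in tumors and 0 fell. Bmpr1a, a BMP type I receptor, rose by 1.40 and 1.33, and Acvr1b, an activin type I receptor, by 0.76 in papillomas. Of 18 SMADs and their regulators, 4 rose in papillomas, 3 rose in tumors and 0 fell. The corepressor gene Tgif1 rose by 1.59 and 1.64, and Pmepa1, a feedback inhibitor that binds receptor SMADs, by 1.73 and 1.12 in papillomas and tumors. Pias4, a SUMO ligase, rose by 1.23 and the corepressor gene Ski by 0.96 in papillomas.

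Of 29 TGF-β target genes, 11 rose and 1 fell in papillomas, and 10 rose and 2 fell in tumors. The median log2 fold change was 0.90 and 0.69. Cdkn1a (p21) rose by 1.86 (SE 0.12, adjusted p = 0.000261) in papillomas and 1.35 (SE 0.13, adjusted p = 0.00187) in tumors. Cdkn2b, a cell-cycle inhibitor, rose by 1.96 in tumors. Postn rose by 3.09, Ctgf by 2.39 and Tagln by 1.75 in papillomas; Acta2 rose by 1.30 there and was at -0.76 (adjusted p = 0.0291) in tumors over tumor skin. Of the 29 targets, Postn, Tagln, Acta2, Col1a1, Col1a2 and Col3a1 are also on the stromal marker lists above. Pmepa1, Tgif1, Ltbp2, Itgb6 and Thbs1 stand on more than 1 pathway list. Thbs1 is the gene that fell in papillomas on both of its lists. Between tumors and papillomas 3 of the 29 passed, all lower in tumors: Acta2 (-2.15), Ctgf (-1.90) and Tagln (-1.59). With slide as a term no probe passed in this comparison, so neither these calls nor that of Lrrc32 held there. The median of the 29 targets in it was -0.415, and -0.432 without the columns papilloma skin 1 and tumor 1. Without the columns papilloma skin 1 and tumor 1, ligand processing genes went to 2 up and 0 down in papillomas and SMAD regulators to 0 up, while 10 targets rose in papillomas and 8 in tumors.

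The genes whose centred profile over the 9 arrays was closest to each member were named by root mean square difference. For Tgfb2 probe 1 they were Col16a1 (0.175 log2 units) and Acta2 (0.222), and for Tgfb3 Hoxd8 (0.0744) and Tspan31 (0.141). For Smad7 they were Ccl3 (0.111) and Serpind1 (0.179), for Inhba F7 (0.165) and Nek6 (0.173), and for Skil Chrna9 (0.0898) and Cflar (0.0965). Tgfbr1 was closest to Slc31a2 (0.0778) and Nek6 (0.114), Smad3 to S1pr2 (0.0741) and Ankrd50 (0.0963), and Tgfb1 to Rnf19b (0.151). Nek6 was thus among the nearest for both Inhba and Tgfbr1.

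The scanner files give these values without the deposited table. On the 6 scanner arrays whose spike-in slope reached 1.04, Smad7 read 8.79 in papilloma skin 2, 10.11, 10.37 and 10.97 in the papillomas, 8.12 in tumor skin 2 and 10.86 in tumor 2. Inhba read 9.69, then 10.61, 11.93 and 11.32, then 8.81 and 11.29 in the same order. Tgfb2 probe 1 read 5.88, then 7.97, 8.27 and 7.84, then 5.43 and 5.72. On these arrays, too, Smad7 and Inhba were higher in every lesion array than in either skin array, and Tgfb2 was higher in each papilloma than elsewhere. All 7 probes called in tumors, all 11 in papillomas and all 3 between lesions had the same direction there, with 1 array each in papilloma skin, tumor skin and tumor. The called papilloma rises ran from 0.45 (Smad3 probe 1) to 3.29 (Tgfb2 probe 2) over the scanner settings. Of the members not called in papillomas, Tgfb1, Tgfbr1 probe 4, both Tgfbr2 probes and Tgfbi changed sign in at least 1 of these settings, Tgfb1 from -0.20 to 1.51. Tgfb3 differed by 0.49 to 1.58 in tumors over tumor skin in the scanner settings, against 0.13 in the deposited table.

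**Figure D4:**
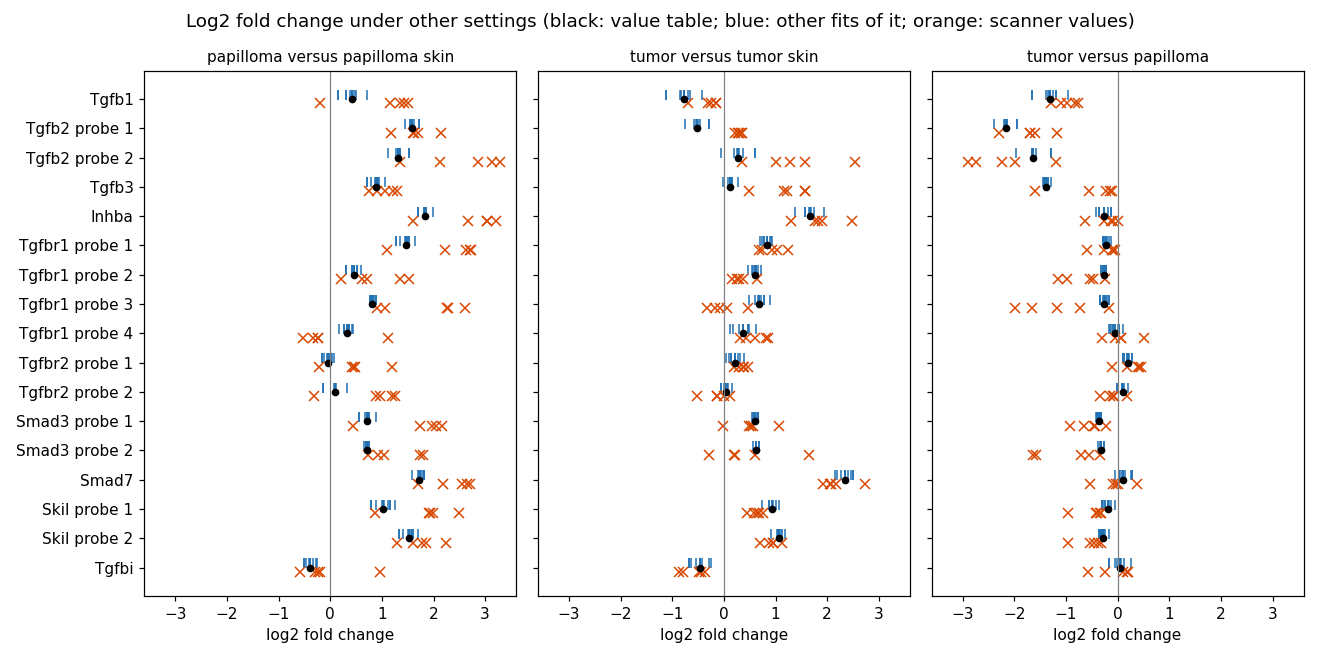
Log2 fold change (horizontal axis) of each probe in 3 comparisons under every setting tried. Black points are the reported values, blue bars other fits of the deposited table, and orange crosses fits of scanner values. Smad7 stays between 1.58 and 2.70 in papillomas and between 1.92 and 2.74 in tumors, and Tgfb2 probe 1 stays below -1.16 between tumor and papilloma.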

How the data were processed

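Total RNA of sorted neutrophils was labelled with Cy3 and hybridised to 9 one-colour Agilent mouse arrays. The authors extracted spot intensity values with Agilent Feature Extraction, per the file headers. The deposited table holds log2 values that the authors quantile normalized with limma and corrected for array chip with ComBat, per the methods; ComBat may narrow the replicate spread, which the tests do not count. Slides, read from the file headers, held papilloma skin 1, tumor skin 1, papilloma 1 and tumor 1 (slide 1), papilloma skin 2, papilloma 2 and tumor 2 (slide 2), and tumor skin 2 and papilloma 3 (slide 3).

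All 55681 non-control probes entered 1 limma 3.58.1 fit (R 4.3.3) with 4 groups and 5 contrasts, 5 residual degrees of freedom, and Benjamini-Hochberg adjustment over all probes at a threshold of 0.05. The fit was tested on simulated data. Replicate spots were averaged. Scanner values served as alternatives: scaled to the 75th percentile, quantile normalized, or after normexp with an offset of 50. The array's gene names were used, and 27235 of 28685 RefSeq accessions were listed in the reference, 15 of the 17 member probes among them. Coordinates are mm9, from the file headers. The exon of a probe was not assigned here. Named genes were all members, up to 4 genes per pathway list by size of change among those that passed, and the 2 nearest profiles for members that span more than 1 log2 unit (1 such profile is not reported here). Acta2, Tagln and the marker genes named with values were chosen after their values were seen, as was the count of list genes without papilloma skin 1 and tumor 1. Members, lists and tests were chosen with earlier results of these data known.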

Additional observations from a re-analysis of the deposited data

Results flagged for a closer look

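In the deposited table, all papilloma arrays were above both papilloma skin arrays and all tumor arrays below both tumor skin arrays for Tgfb2 probe 1 and Tgfb1. Of the 4 effects behind this, the rise of Tgfb2 probe 1 in papillomas passed and the other 3 did not (adjusted p = 0.116 to 0.384). The log2 fold change of tumor over tumor skin minus that of papilloma over papilloma skin was -2.10 for Tgfb2 probe 1 (limma, adjusted p = 0.0547) and -1.20 for Tgfb1 (adjusted p = 0.225), so neither difference passed. For Tgfb2 probe 1 the opposite signs were lost in all 5 fits of scanner values (0.21 to 0.34 in tumor over tumor skin), and for Tgfb1 they were lost on the 6 arrays (-0.20 in papilloma over papilloma skin).

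Of the pathway lists, Acta2 and Tagln differed in the same test, by -2.06 (adjusted p = 0.0464) and -2.13 (adjusted p = 0.0343). Both are also on the smooth muscle or pericyte list, where 4 of 8 markers passed it. Their list median was -1.92, and -1.80 without the columns papilloma skin 1 and tumor 1. These calls depended on the processing. Of all probes 18 passed this test, and 31 with slide as a random block. With slide as a term, and in the scanner fits of all arrays, 0 passed, so neither gene held there. With 1 papilloma column left out, 1 to 3 of all probes passed.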

How the results depend on the processing

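The counts of member probes that passed depended on the processing, and the cause was not tested. In the order tumor over tumor skin, papilloma over papilloma skin, tumor against papilloma, the counts were 7, 11 and 3. All 5 fits of scanner values (75th percentile, quantile, normexp and quantile, quantile with slide as a term, and only the 6 arrays whose spike-in slope was 1.04 or more) gave 0, 0 and 0, and 0 over all probes, with 147 to 7807 probes at an unadjusted p under 0.05 in a contrast. The deposited table with slide as a term gave 1, 5 and 0 (0.381%, 1.92% and 0% of all probes), the 7 columns 1, 5 and 0 (4.2%, 2.33% and 0%), and the fold and level minimum of the methods 3, 7 and 3. The replicate block gave 2, 5 and 0 (1.42%, 1.05% and 0.0018%). Deviations of same-numbered columns from their group means correlated at -0.959 to 0.534. Whether the numbers pair the samples cannot be told from these correlations. The 2 arrays of a group deviate in mirror image, and the deposited table is already corrected for array chip. Slide as a random block (correlation -0.251) left 7, 11 and 3 (9.82%, 4.73% and 0.408% of all probes). It gave 1 probe (Tgfb2 probe 1, adjusted p = 0.0443 by limma) for the difference of lesion effects (0.0557% of all probes), against 0. Medians over a gene's probes gave 5, 7 and 2 of 10 genes (10.4%, 7.56% and 0.983% of all genes), against 5, 7 and 2 genes with a probe that passed. The filter on dim probes gave 8, 11 and 3 probes (13.9%, 9.49% and 1.0% of the probes kept).

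Leaving out each column gave 2 to 7, 6 to 11 and 1 to 3. The count for tumor over tumor skin went to 3 without tumor skin 1, tumor skin 2 or papilloma 1, to 4 without papilloma 3 and to 2 without tumor 1 or tumor 2. The count for papilloma over papilloma skin went to 6 without papilloma skin 1 or papilloma 1 and to 7 without papilloma 2 or papilloma 3. The count for tumor against papilloma went to 1 without papilloma 1, papilloma 3 or tumor 1. The share of all probes that passed moved as well, from 9.74%, 6.35% and 0.645% with all columns. Without a papilloma column, which keeps 2 arrays in every group, it was 5.55% to 7.08%, 2.95% to 3.52% and 0.0898% to 0.32%. An arm left with 1 column is assumed to vary like the other groups.

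Only Smad3 turned among called probes, to -0.0188 (probe 1) and -0.282 (probe 2) in tumor over tumor skin, with slide as a term on scanner values. Of 1700 recomputed fold changes, 1484 kept their direction or stayed uncalled, 211 lost and 3 gained the threshold. Within slides, all 7 tumor calls, all 11 papilloma calls and all 3 calls between lesions kept their direction. The groups of these probes do not overlap, so this direction was fixed in advance and does not test the slides. With 2 or 3 arrays a group, the number of arrays limits the precision.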
